A study of Mus musculus with 64 samples.

Results

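Stretches of the autosomes that carried no H3K27ac peak in resting B cells, and carried one in every library after 12 h and after 24 h of stimulation, were collected and described by their genes, their sequences and the Polycomb marks that lay on them. A base was taken when peaks from the castaneus (Cast) allele covered it in all 3 H3K27ac libraries of 12 h, in all 3 of 24 h and in none of the 3 of 0 h. The members were thus chosen by the H3K27ac values of the 3 times, which are given as a description only. Bases within 500 bp were joined, and stretches from 1 kb to under 15 kb were kept. This gave 1476 regions out of 3142 autosomal H3K27ac regions that could be placed in 1 of 5 patterns over the 3 times. Of the others, 1492 were acetylated in every library at all times, 112 only at 24 h, 58 only at 12 h and 4 only at 0 h.

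The cells were splenic CD23+ B cells from female F1 mus x cast mice, whose mothers were C57BL/6 with a heterozygous Xist deletion and whose fathers were M. m. castaneus. The deletion skews X inactivation in this hybrid, and the labels give the same F1 genotype for all groups without saying which animals carried the deletion. Cells were taken unstimulated (0 h, naive) or after 12 h or 24 h with 1 uM CpG, DNA that activates B cells through Toll-like receptor 9. CUT&RUN, which cuts DNA beside an antibody bound to chromatin, was done for H3K27ac, H3K27me3, H2AK119Ub, H3K9me3, Suz12 and Ring1B with 3 to 5 libraries a time, and the 3 IgG controls were not analysed here. At 0 h, H3K27ac peaks in at least 2 libraries lay on 7 of 8 B cell marker genes, on 1 of 14 T cell markers (Cd3d), on 0 of 15 myeloid markers and on 2 of 11 erythroid and stromal markers (Pecam1 and Cdh5). At 12 h and 24 h these counts were 8 and 7 for B cell, 2 and 2 for T cell, 1 and 3 for myeloid and 2 and 2 for erythroid and stromal markers, and the part of other cells in the gained regions was not tested.

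H3K27ac is a histone acetylation found at active promoters and enhancers. Polycomb repressive complex 2, of which Suz12 is a core subunit, places H3K27me3, and Polycomb repressive complex 1, of which Ring1B is the catalytic subunit, places ubiquitin on H2A (H2AK119Ub). Both marks are known for keeping genes of other lineages and of other states silent, while the complexes can also sit at CpG-rich promoters of active genes.

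Promoter sequences are shown first, because the regions with a gene start had a base composition of their own and because 3 of these genes return in the results on Polycomb marks. Sequences are RefSeq promoters of the C57BL/6J reference, build GRCm38.p6 (mm10), from 250 bases before to 50 after the start, 5′ to 3′ on the gene's strand, and the Cast allele can differ from them. Capitals mark each match, on either strand, to 1 of 10 motifs: AP-1 (TGANTCA), CRE (TGACGTCA), E-box (CACGTG), ETS (CCGGAAGT), the GC box (GGGCGG), the CCAAT box (those letters), the TATA box (searched as TATAAA), and the consensus letters of NF-kB, NRF1 and the interferon-stimulated response element (ISRE). Ifnlr1 (the receptor chain for type III interferons), Gadd45b (a stress-induced survival gene) and Mcm5 (a subunit of the replicative helicase) are these 3. Birc5 (survivin, a cell division gene), Socs1 (a feedback inhibitor of cytokine signalling) and Fas (a death receptor) are examples from the gene lists.
Ifnlr1 (chr4:135686207-135686506, plus strand): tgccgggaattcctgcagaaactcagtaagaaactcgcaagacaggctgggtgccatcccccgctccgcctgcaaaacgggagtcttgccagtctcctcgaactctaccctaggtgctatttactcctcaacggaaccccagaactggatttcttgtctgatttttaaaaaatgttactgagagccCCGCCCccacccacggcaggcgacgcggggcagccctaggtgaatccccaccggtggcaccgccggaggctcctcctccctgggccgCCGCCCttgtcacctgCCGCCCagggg
Gadd45b (chr10:80929841-80930140, plus strand): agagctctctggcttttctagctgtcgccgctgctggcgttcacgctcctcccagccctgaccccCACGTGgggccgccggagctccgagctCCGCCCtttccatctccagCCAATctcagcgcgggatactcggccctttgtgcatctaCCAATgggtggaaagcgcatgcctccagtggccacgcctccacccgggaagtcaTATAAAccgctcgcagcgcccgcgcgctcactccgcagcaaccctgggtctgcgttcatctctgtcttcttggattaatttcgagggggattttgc
Mcm5 (chr8:75109259-75109558, plus strand): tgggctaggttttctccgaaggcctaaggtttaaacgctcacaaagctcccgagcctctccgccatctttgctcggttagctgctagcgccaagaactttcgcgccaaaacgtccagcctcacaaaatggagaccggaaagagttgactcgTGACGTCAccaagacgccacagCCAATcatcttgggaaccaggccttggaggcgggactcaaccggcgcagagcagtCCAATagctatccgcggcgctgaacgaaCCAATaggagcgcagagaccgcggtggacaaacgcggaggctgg
Birc5 (chr11:117848987-117849286, plus strand): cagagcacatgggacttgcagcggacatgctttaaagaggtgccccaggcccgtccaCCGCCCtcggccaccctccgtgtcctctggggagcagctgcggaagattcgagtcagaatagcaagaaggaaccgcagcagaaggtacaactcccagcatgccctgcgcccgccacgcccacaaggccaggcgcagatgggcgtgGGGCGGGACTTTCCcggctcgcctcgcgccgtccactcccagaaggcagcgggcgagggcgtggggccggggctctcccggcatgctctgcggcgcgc
Socs1 (chr16:10785487-10785786, minus strand): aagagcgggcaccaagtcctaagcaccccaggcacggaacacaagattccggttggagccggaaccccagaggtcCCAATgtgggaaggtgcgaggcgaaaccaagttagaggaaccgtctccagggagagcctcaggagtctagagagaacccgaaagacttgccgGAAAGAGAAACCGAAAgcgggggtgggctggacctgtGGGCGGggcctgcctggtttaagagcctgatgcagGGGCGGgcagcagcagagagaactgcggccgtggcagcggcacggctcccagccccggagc
Fas (chr19:34290409-34290708, plus strand): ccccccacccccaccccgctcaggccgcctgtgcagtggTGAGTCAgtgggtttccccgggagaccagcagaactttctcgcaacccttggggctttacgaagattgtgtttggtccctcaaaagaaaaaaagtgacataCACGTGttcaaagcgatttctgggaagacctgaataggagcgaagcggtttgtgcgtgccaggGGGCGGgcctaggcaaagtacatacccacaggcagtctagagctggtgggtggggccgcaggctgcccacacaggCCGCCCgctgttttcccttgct
Neighbouring capitals can belong to overlapping matches: in Birc5, the only 1 of these 6 with an NF-kB match, a GC box runs into the NF-kB match.

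A start from the RefSeq promoter table lay inside a region for 694 promoters of 605 genes. Their median GC content was 62% against 53% over all 31396 promoters, and their median number of CpG was 24 against 7. At least 10 CpG were present in 89.3% of them, in 44.0% of all promoters and in 52.4% of the 498 promoters starting in a region acetylated at all times. The GC box was found in 69.3% (all promoters 36.0%), the ETS motif in 11.8% (3.95%) and NRF1 in 3.75% (0.968%). The TATA box was in 5.76% against 13.6% of all promoters and AP-1 in 5.04% against 7.84%. NF-kB was in 3 of 694, 0.432%, and in 0.417% of all promoters. These are shares of letter matches in 300 bases, as the plot of motif matches shows beside the promoters acetylated at all times.

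**Figure D1:**
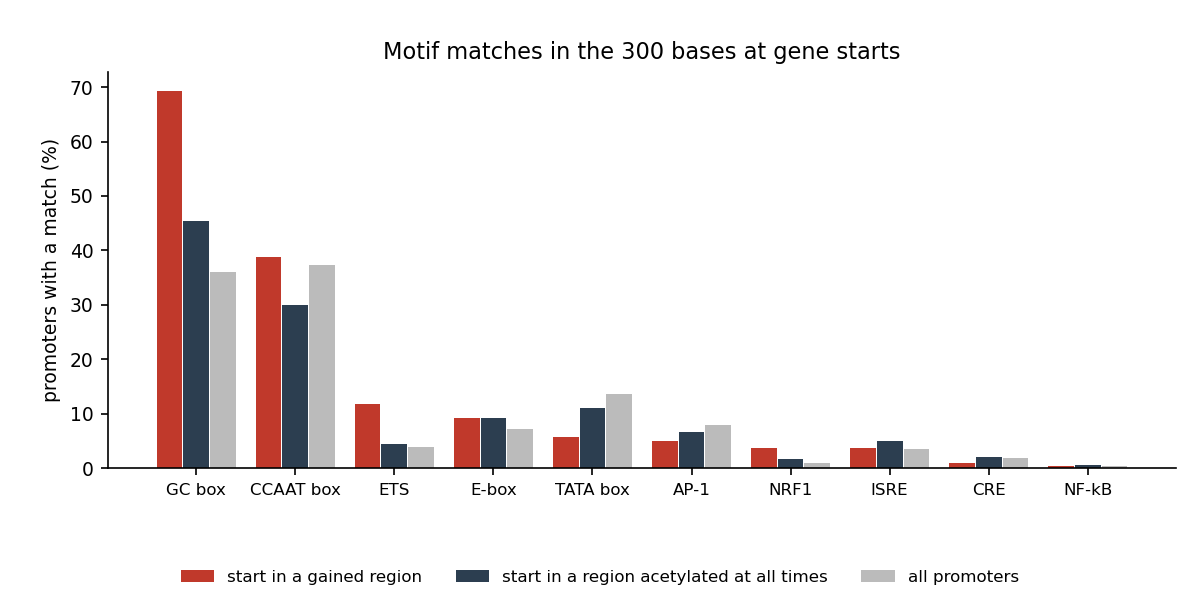
Percent of promoters with at least 1 match to each motif on either strand (y axis), for promoters whose start lies in a gained and kept region (694), in a region acetylated at all times (498), and all promoters (31396). The GC box (69.3%) and ETS (11.8%) bars of the gained regions stand above both others, and the TATA box bar (5.76%) below both.

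The regions were short. Their median length was 2798 bp, from 1022 to 14003 bp, and together they spanned 4.51 Mb, whereas regions acetylated at all times had a median of 5588 bp. The lower size limit left out 264 stretches, and no stretch reached 15 kb. Among those just under the limit were Rpl11 (975 bp) and Cpsf6 (946 bp), and those just over it lay at Mrpl32 (1022 bp), Stk4 (1025 bp) and Spata13 (1036 bp). A 0 h H3K27ac peak of some library touched 120 regions, and 974 (66.0%) were at least 10 kb from the nearest 0 h peak.

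The count rests on lists of very different length. The H3K27ac lists held 1450, 4748 and 5277 peaks at 0 h, 9766, 15789 and 8337 at 12 h, and 15896, 9807 and 9556 at 24 h. With every list reduced to its 1450 peaks of highest signal, 70 regions met the rule, and they overlapped 31 of the 1476. With a peak allowed in 1 of the 3 libraries of 0 h there were 2409, and with the upper 50% of each list by maximum signal 738, which overlapped 344 of the 1476. Read depth is not given in the sources used here, so the lack of a peak at 0 h cannot be told apart from a shorter list.

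A gene start lay in 480 of the 1431 regions that could be placed (33.5%), 729 (50.9%) lay within a gene's span without a start, and 222 (15.5%) lay outside genes. Only protein-coding and long noncoding RNA genes were used, so regions over immunoglobulin V segments count as outside genes. Of the regions acetylated at all times, 25.4% held a start. Genes whose span with 2 kb on each side carried a region numbered 1411 of 33069, 4.27%, of which 1193 were protein-coding. There were 164 genes with 2 or more regions and 17 with 4 or more. Lpp, which codes for a focal adhesion protein, carried 7, and Foxp1, a transcription factor of B cell development, carried 6. Bank1, an adaptor of B cell receptor signalling, and the long noncoding RNA gene Lncpint also carried 6 each. These are long genes, from 124.912 kb for Lncpint to 599.229 kb for Lpp.

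The longest region (chr1:144304971-144318973, 14003 bp) was outside genes, 55866 bp from Rgs1, a regulator of chemokine receptor signalling. The next, 13800 bp, lay inside Bach2 (chr4:32457451-32471250), and one of 10280 bp lay inside Pax5 (chr4:44592370-44602649), 2 factors that hold the B cell state. One of 11789 bp began 2227 bp from Tnfaip3 (chr10:18986894-18998682), the A20 inhibitor of NF-kB. The others were in Arhgef18 (10428 bp), over the start of Irak1bp1 (12366 bp) and outside genes near Prag1 (12563 bp) and Lonrf1 (11419 bp).

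Counts by gene list are set beside the 4.27% of all genes (5.77% of protein-coding genes) and are no test, since the rule used this contrast. In the NF-kB list 6 of 17 genes carried a region: Nfkb1 (4 regions) and Rel and Rela, which are subunits, and Nfkbie, Tnfaip3 and Tnip1, which are inhibitors. B cell identity genes had 5 of 20 (Bach2 and Pax5 with 5 regions each, Ebf1, Blk and Pou2af1). Survival genes had 5 of 18 (Gadd45b, Bcl2a1a, Bak1, Pim1 and Birc5). Cell cycle and replication genes had 6 of 33, among them Cdk6 (4 regions), Ccnd3, Mcm4, Mcm5 and Pcna. Regions acetylated at all times lay on 7 of the NF-kB genes, 10 of B cell identity, 3 of survival and 2 of the cell cycle list.

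Among secreted and surface proteins, 4 of 22 cytokine and chemokine genes (Il10, Ebi3 and the neighbours Ccl3 and Ccl4, which share 1 region) and 4 of 22 activation genes (Cd274, Icam1, Tnfrsf1b and Fas) carried a region. Interferon, Stat and Socs genes had 5 of 30, with Irf8, Irf2, Socs1 and the neighbours Stat5a and Stat5b, which share 1 region. Plasma cell and secretory genes had 3 of 21 (Xbp1, Ell2 and Prdm1), Myc and nucleolar genes 3 of 31 (Odc1, Gnl3 and Wdr12), and nutrient genes 3 of 25 (Slc3a2, Psat1 and Psph). Toll-like receptor genes had 2 of 20 (Tab2 and Peli1), homing genes 2 of 16 (Cxcr5 and Rgs1), and the AP-1 list 1 of 24 (Batf). Regions acetylated at all times lay on 2 of these cytokine and chemokine genes, 9 activation genes and 5 of the interferon, Stat and Socs list. They lay on 0 plasma cell, 0 Myc, 1 nutrient, 8 Toll-like receptor, 8 homing and 2 AP-1 list genes. No gene of 40 developmental Polycomb targets, 14 T cell markers or 15 myeloid markers carried a region, and of the 11 erythroid and stromal markers Pecam1 did. Among the genes of all lists, Nfkbie, Pcna, Icam1, Ebi3, Stat5b, Cxcr5 and Rgs1 were counted only through the flank of 2 kb. The region counted for Icam1 holds the start of Icam5.

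A pair of gene families was counted after the starts were seen. Of the genes with an Rpl or Rps symbol in the promoter table, 11 of 73 (15.1%) started in a region. The ribosomal protein genes Rpl4, Rpl14, Rps7 and Rps12 were among them. The symbol alone was used, so related genes such as Rps27l are counted too. Of the Psm proteasome genes 6 of 38 (15.8%) did, among them Psma2, Psmc5 and Psmd14. Over the 25748 genes of the table the share was 2.35%. In regions acetylated at all times started 2 of the Rpl and Rps genes (2.74%) and 0 of the proteasome genes, and 418 (1.62%) of all genes. Of 919 autosomal miRNA hairpins, 8 lay in a region, among them Mir423 and Mir1900.

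Before stimulation the regions carried more H2AK119Ub than the regions acetylated at all times. The 4 libraries of 0 h covered 6.53%, 11.05%, 5.02% and 6.15% of the gained bases, and 1.80%, 4.47%, 1.00% and 1.34% of the bases acetylated at all times. Relative to the share of the autosomes that each list covered, the gained regions stood at 4.27 to 4.65 and the constant ones at 0.888 to 1.88. The groups of values did not overlap on either scale.

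H3K27me3 at 0 h was rare on both kinds of region. In the gained regions 0.885%, 1.24% and 3.02% of bases were covered, which was 0.733 to 0.958 of the autosomal share, against 0.0712%, 0.114% and 0.239% in the constant ones. Suz12 covered 31.9%, 17.3% and 16.6% of the gained bases and 32.1%, 18.1% and 15.2% of the constant ones. Ring1B covered 17.1%, 22.8% and 20.2% of the gained bases and 19.7%, 24.7% and 22.3% of the constant ones. For these 2 proteins the ranges of the gained and constant regions overlapped. Within each library, Ring1B covered less of the gained than of the constant bases in all 3, and Suz12 in 2 of 3, and both kinds of region stood at 5.47 times the autosomal share or more.

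**Figure D2:**
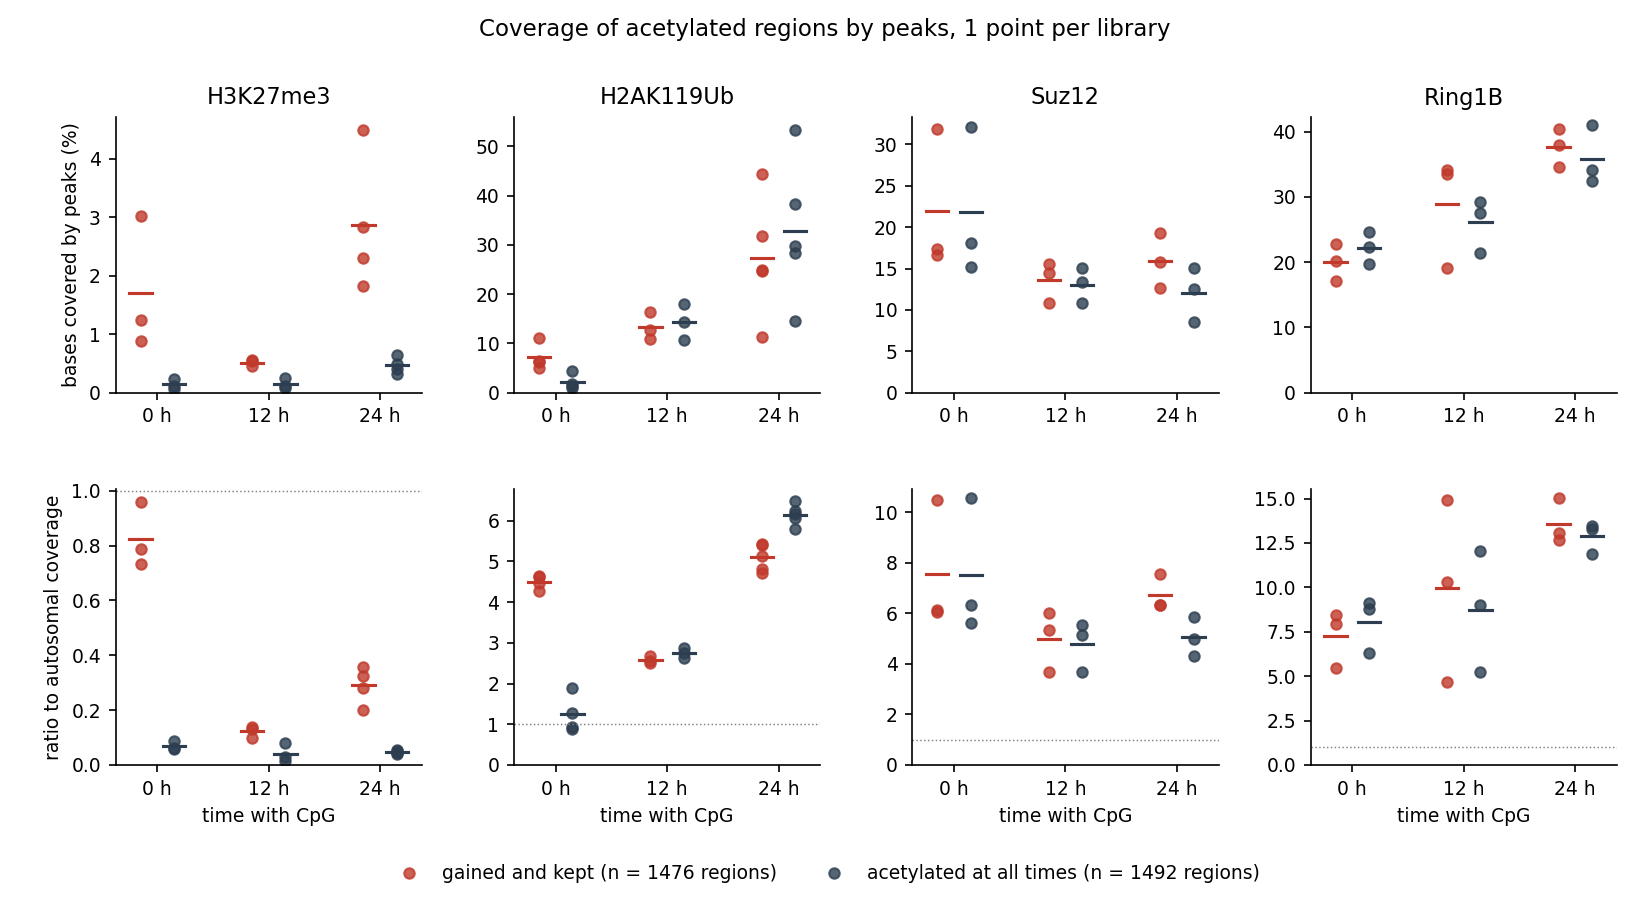
Share of bases covered by peaks in percent (upper row) and its ratio to the share of the autosomes covered by the same list (lower row, dotted line at 1) for 4 marks at 0, 12 and 24 h. Points are libraries and bars their means; at 0 h the gained regions (red) lie above the constant ones (dark) for H3K27me3 and H2AK119Ub, and the values overlap for Suz12 and Ring1B.

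Counted per region, a 0 h peak in at least 2 libraries lay on 22 gained regions for H3K27me3 (1.49%, against 0.859% of all 3142 regions) and on 111 for H2AK119Ub (7.52%, against 5.19%). It lay on 483 for Suz12 (32.7%, against 38.8%) and on 451 for Ring1B (30.6%, against 38.3%). H3K9me3, a mark of constitutive heterochromatin, had 0 at 0 h; the mark is named by the antibody label of these libraries, whose titles read H3K29me3. Single libraries moved these counts: H3K27me3 was at 14 without replicate 2 of 0 h and at 8 without replicate 3, Suz12 at 274 without replicate 1, and Ring1B at 275 without replicate 2 and at 281 without replicate 3. No 0 h peak of any of the 4 Polycomb marks in any library was found on 451 regions, and all 4 in at least 2 libraries on 13. Of the 22 regions with H3K27me3, 19 also had H2AK119Ub (86.4% of the former and 17.1% of the latter), and Suz12 and Ring1B shared 345 regions (71.4% and 76.5%).

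Suz12 and Ring1B were more frequent on regions with a gene start, and the histone marks were not. With a gene start, 67.7% of the gained regions had Suz12 and 59.2% had Ring1B at 0 h, and without one 15.2% and 16.1%. For H2AK119Ub the shares were 6.88% and 7.68%, and for H3K27me3 1.67% and 1.47%. In regions acetylated at all times without a gene start the shares were 41.1% for Suz12 and 42.6% for Ring1B. The constant regions are longer, and the part of length in this difference was not tested.

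**Figure D3:**
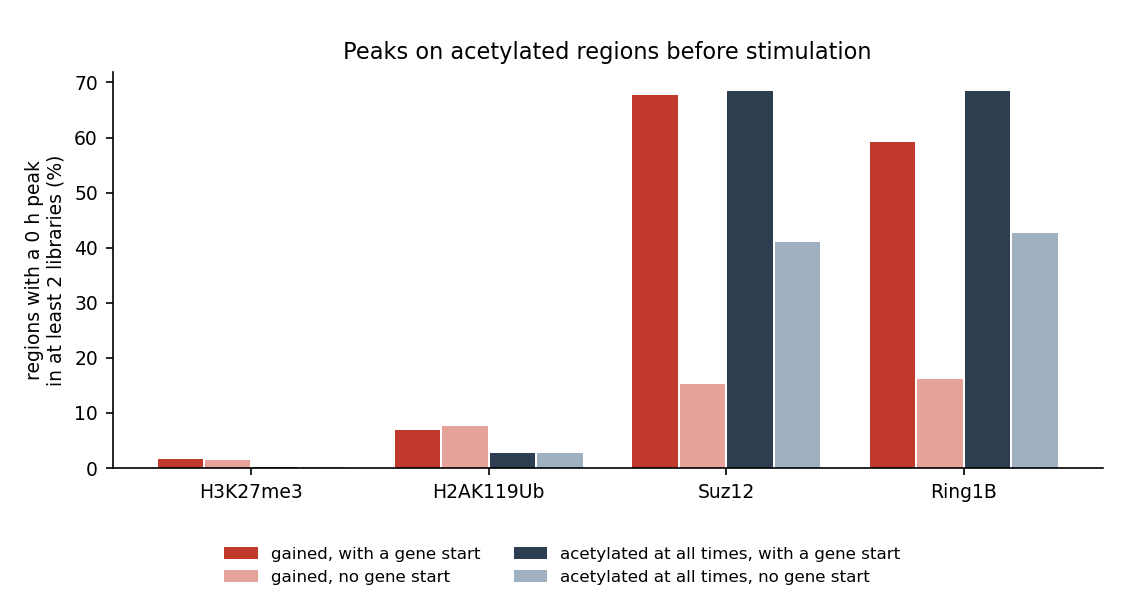
Percent of regions with a 0 h peak in at least 2 libraries (y axis) for each mark, for gained and constant regions with and without a gene start. Suz12 and Ring1B bars are near 60 to 70% wherever a gene start is present, and H2AK119Ub is 6.88% and 7.68% in the gained regions.

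Regions with high 0 h coverage by H3K27me3 or H2AK119Ub were few and differed in what followed. In the region over the Ifnlr1 start (chr4:135685700-135688361) H3K27me3 covered 100% in all 3 libraries of 0 h, 0% in all 3 of 12 h and 0%, 100%, 100% and 100% at 24 h. H2AK119Ub covered 100% of it in all 12 libraries, and Suz12 100% in all 3 of 0 h. So the H3K27me3 values of 0 h and 12 h did not overlap, while H2AK119Ub was at the upper limit of this measure, which cannot show a change in its signal; across times limma gave an adjusted p of 0.0511 for H3K27me3, which misses the threshold of 0.05.

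At the noncoding gene 4933432I03Rik (chr14:103032332-103036336) H3K27me3 covered 89.8%, 100% and 100% at 0 h, 0% in all 3 libraries at 12 h and at least 92.9% in the 4 at 24 h (limma adjusted p = 7.86e-05). The region inside the predicted gene Gm41950 (chr1:128547521-128549826) had H3K27me3 on 36.5%, 100% and 100% at 0 h, 0% in all 3 libraries at 12 h and 0%, 0%, 0% and 32.2% at 24 h (limma adjusted p = 0.0266). In both genes the H3K27me3 values of 12 h lay below all those of 0 h, and in Gm41950 those of 24 h did too. At 0 h Suz12 covered 0% of the 4933432I03Rik region in all 3 libraries, and Ring1B 0%, 63.0% and 0%. In Gm41950 Suz12 covered 0%, 0% and 70.6% at 0 h, and Ring1B 0%, 89.6% and 58.0%.

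At Gadd45b H3K27me3 was 0%, 0% and 57.7% at 0 h, 8.25%, 0% and 0% at 12 h and 0% in all 4 libraries of 24 h. H2AK119Ub covered the region (chr10:80928934-80933998) by 100% in every library of 0 h and 12 h and by 96.9% to 100% at 24 h. H3K27ac on this region at 12 h and 24 h was set by the rule, as for every gained region. Ring1B there was 59.7%, 74.7% and 84.7% at 0 h and 100% in all 3 libraries of 24 h, with a limma adjusted p of 0.378. The long region near Rgs1 (chr1:144304971-144318973) also had H2AK119Ub on 100% in all 4 libraries of 0 h, then 100%, 28.5% and 18.1% at 12 h.

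A cluster of regions lay among the V segments of the immunoglobulin kappa locus. Between the first and last Igk segments (chr6:67555636-70726754), which hold 168 segments, 8 regions were found, 7 of them over a segment. At 0 h H3K27me3 was present in at least 2 libraries on 4 of the 8 and H2AK119Ub on 6. The region at Igkv11-106 (chr6:68337461-68341355) had H3K27me3 and H2AK119Ub on 100% in every library of every time. Its H3K27ac after stimulation was set by the rule, and whether the marks lay in the same cells was not tested. The heavy chain locus held 3 regions and the lambda locus 0.

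**Figure D4:**
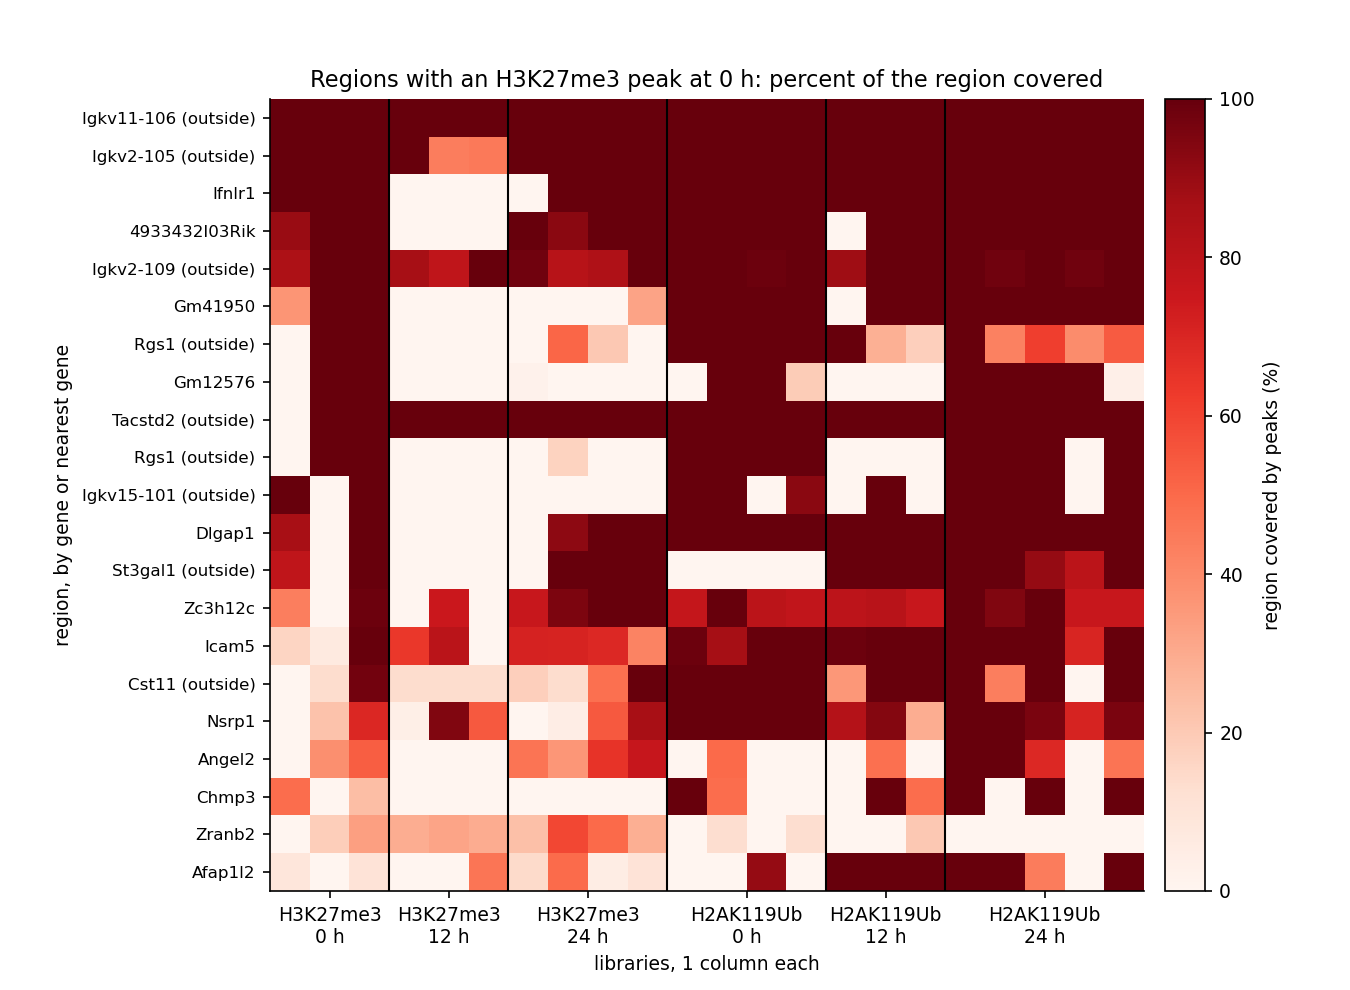
Percent of each region covered by H3K27me3 and H2AK119Ub peaks (colour, 0 to 100%) in every library (columns) for 21 of the 22 regions with an H3K27me3 peak in at least 2 libraries at 0 h (rows, named by gene or nearest gene, "outside" where the region is in no protein-coding or long noncoding RNA gene). Rows named Igkv can lie over the V segment and still read "outside". H3K27me3 is absent from 11 of the 21 rows at 12 h, and H2AK119Ub fills the upper rows at 0 h.

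Over time, of these 22 regions 12 had no H3K27me3 peak in any library of 12 h and 8 had one in at least 2, and at 24 h 16 had one in at least 2 of the 4 libraries. Of the 111 regions with H2AK119Ub at 0 h, 71 had it in at least 2 libraries at 12 h and 103 at 24 h. Of the 483 with Suz12, 185 and 261 did, and of the 451 with Ring1B, 354 and 398. These regions were chosen for their peaks at 0 h, so the counts are a description with no test. The lists themselves grew for the histone marks: the mean share of the autosomes covered by H3K27me3 was 2.11%, 4.28% and 9.66% at the 3 times, and that by H2AK119Ub 1.59%, 5.20% and 5.36%.

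To test single regions, limma compared the percent covered over the 3 times for every acetylated region with a peak in at least 3 libraries of a mark, with Benjamini-Hochberg adjustment across all of them. A region could enter through the libraries of 1 time alone, so the share called depends on this filter and is not a share of all gained regions. Rela, Batf, Cdk6, Il6st, Ears2 and the region near Capn2 entered so through 24 h, and Mcm5 through 12 h. Specc1, Slco4a1, Niban3, 4833417C18Rik, Pfkl, Stat5a, Tnfrsf1b and, for Ring1B, Bub1b entered through 12 h and 24 h, with 0% at 0 h. The same holds for every other called region at 0% in all libraries of 0 h. For all such regions the filter used the times where they were high, so their adjusted p is given as a description. H2AK119Ub was higher at 24 h than at 0 h in 140 of the 503 gained regions tested (27.8%), against 39% of all 1222 regions tested, and lower in 3, against 0.245%. With a peak asked in at least 1 library it was higher in 128 of 806 (15.9%), against 22% of 1950. At 12 h it was higher than at 0 h in 67 (13.3%), against 19.2%, and lower in 11 (2.19%), against 0.9%. From 12 h to 24 h it was higher in 84 (16.7%), against 22.3%, and lower in 5 (0.994%), against 0.573%. With each library divided by its autosomal share, 116 of the 503 were higher and 62 lower at 24 h. The split of directions thus depends on the scale. Without replicate 4 of 24 h, the shortest of those lists, 230 were higher, and simulated shifts of 60 points were recovered for 37% of regions, so shifts of that size were often missed.

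Of the 140 regions, 128 were at 0% in all 4 libraries of 0 h. Of all 1476 gained regions 1296 (87.8%) were, but this set includes regions with too few peaks to be tested. The share among the 503 gained regions tested is not given here, so the 128 cannot be set beside a matching background. Of the 140, 62 were already higher at 12 h, and 74 were higher at 24 h than at 12 h. Regions at 0% in every library of 0 h and 100% in every library of 12 h and 24 h lay in Specc1, and over the starts of Slco4a1, Niban3, 4833417C18Rik and Pfkl, which codes for liver phosphofructokinase (each with a limma adjusted p of 1.95e-07).

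Several immune genes were among them, and others were not. The mark was at 0% at 24 h in every gained region counted for Nfkb1, Rel, Nfkbie, Tab2, Peli1, Cd274, Bach2, Pax5, Ebf1 and Pou2af1. At the end of Rela (chr19:5647850-5649979), the p65 subunit of NF-kB, H2AK119Ub was 0% in all 7 libraries of 0 h and 12 h and 100% in all 5 of 24 h (limma adjusted p = 1.95e-07). At the end of Batf (chr12:85707241-85713135), an AP-1 family factor of class switching, it was 0% in those 7 and 84.8% to 100% at 24 h (limma adjusted p = 8.52e-07). The groups did not overlap in either gene.

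At the starts of Stat5a, a cytokine-activated factor, and Tnfrsf1b, a TNF receptor, it was 0% in all 4 libraries of 0 h and at least 96.8% in the 3 of 12 h. In both it was then 100% in 4 of the 5 libraries of 24 h and 0% in replicate 4 (limma adjusted p = 0.00700 and 0.00717). The Cdk6 start had 0% in every library of 0 h and 12 h and 69.8% on average at 24 h, with replicate 4 again at 0% (limma adjusted p = 0.0137).

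Mcm5 gained the mark only in passing. H2AK119Ub over its start (chr8:75108289-75110122) was 0% in all 4 libraries of 0 h, 100% in all 3 of 12 h and 0% in all 5 of 24 h (limma adjusted p = 5.46e-07). The values of 12 h overlapped neither of the others. Suz12 there was at least 91.7% in the 3 libraries of 0 h and Ring1B 100%.

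The opposite course was seen in the 11 regions where H2AK119Ub fell by 12 h, 9 of which were higher again at 24 h than at 12 h. Of the 11, 8 lay outside genes, 1 of these over the V segment Igkv1-110. The clearest was a region 172593 bp from Cxcr4, a chemokine receptor gene (chr1:128764893-128770200), with 100% in all 4 libraries of 0 h, 0% in all 3 of 12 h and 66.9% to 100% at 24 h (limma adjusted p = 1.28e-05). Others lay near Dusp10 and Dusp4 (phosphatases of MAP kinases), Tet2 (a DNA demethylase), Klf6 and Rgs1. On the scaled values the number lower at 12 h was 61, counted in the gained regions alone and not set beside all regions.

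For H3K27me3, 65 gained regions could be tested and 8 changed. At 24 h, 5 were higher than at 0 h (7.69%, against 10.6% of the 85 tested in all) and 2 lower (3.08%, against 2.35%), and at 12 h 3 were lower (4.62%, against 3.53%) and 0 higher (against 1.18%). From 12 h to 24 h, 6 were higher (9.23%, against 10.6%). Those higher included the start of Il6st, the signal transducer gp130, with 0% in all 6 libraries of 0 h and 12 h and 58.0%, 30.4%, 100% and 100% at 24 h (limma adjusted p = 0.0266). A region 623 bp from Capn2, a calpain, went from 0% in all 6 to 100% in all 4 (limma adjusted p = 1.04e-04). The regions at Il6st and near Capn2 entered the test through the libraries of 24 h alone. Gm41950 was 1 of the 2 that were lower at 24 h. On values scaled by autosomal share 0 of the 65 were higher and 7 lower at 24 h, so that the direction of the list turns with the scale. These scaled counts are of gained regions alone and are not set beside all regions. The 8 became 4 or 5 without any 1 library of 12 h or without replicate 3 or 4 of 24 h, and 14 and 15 without replicates 1 and 2 of 24 h.

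Ring1B covered 34.5% to 40.4% of the gained bases in the 3 libraries of 24 h, above the 17.1% to 22.8% of 0 h without overlap, and the constant regions went the same way (32.5% to 41.1%). Single regions rarely passed: 14 of 899 were higher at 24 h (1.56%, against 0.713% of 2105) and 10 at 12 h (1.11%, against 0.475%), and from 12 h to 24 h 5 were higher (0.556%, against 0.285%) and 1 lower (0.111%, against 0.0475%). The region inside Bub1b, a spindle checkpoint kinase, had 0% in the 3 libraries of 0 h, 100%, 90.0% and 99.2% at 12 h and 100% at 24 h, and that inside Ears2, a mitochondrial tRNA synthetase, 0% in all 6 of 0 h and 12 h and 74.7%, 96.8% and 100% at 24 h (limma adjusted p = 0.0463 for each). No call was left on scaled values or without any 1 of the other 8 Ring1B libraries. Without replicate 1 of 12 h, 47 of 875 gained regions were called, a count not set beside all regions.

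Suz12 gave 0 calls in 622 gained regions, against 0% of 1562, by limma. At an unadjusted p under 0.05 there were 93 (14.95%), and 164 (10.5%) of all regions. The gained bases covered were 10.8% to 15.5% at 12 h and 12.6% to 19.3% at 24 h, after 16.6% to 31.9% at 0 h. The 24 h range overlapped that of 0 h, and the 12 h range lay below it. In the constant regions Suz12 covered 15.24% to 32.12% of bases at 0 h. Their ranges of 12 h (10.81% to 15.05%) and of 24 h (8.56% to 15.02%) both lay below that of 0 h. The lower values after stimulation were thus not confined to the gained regions. As ratios to the autosomal share, the constant regions stood at 5.63 to 10.6 at 0 h and 3.67 to 5.54 at 12 h. At 24 h they stood at 4.30 to 5.87, which overlapped 0 h on this scale. H3K9me3 lay on 1 gained region at 12 h and on 2 at 24 h in at least 2 libraries, and could not be fitted.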

How the data were processed

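CUT&RUN peak lists of 61 libraries (H3K27ac, H3K27me3, H2AK119Ub, H3K9me3, Suz12, Ring1B; 3 to 5 a time) were used. Each deposited list gives positions, the total signal and the maximum signal of peaks on the Cast allele, as written by the authors. Build mm10, Trimmomatic 0.32, Bowtie2 2.3.4.1, Picard and deepTools 3.5.1 are named in the submitters' processing notes. Per the file names, SEACR called peaks in relaxed mode with normalization for the histone marks and in stringent mode on the top 0.01 for Suz12 and Ring1B. No source used here gives the SEACR version, the rule for assigning alleles or the number of reads, so no counting interval is possible.

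Peaks were turned into the percent of each region covered. The tests used limma 3.58.1 (R 4.3.3; moderated F over the 3 times, trend and robust; adjusted p under 0.05), with all times of a mark in 1 fit, and were tested on simulated data. In the H2AK119Ub simulation (1222 regions) 14% of shifts of 30 points and 37% of 60 points were recovered; in that of Ring1B (2105 regions) 0% and 1% were. Ties in p were ordered by length. Genes and promoters came from RefSeq (GRCm38.p6), with no exon annotation, and regions of chromosome 18 have no promoter table and were left out of the counts by place. Named genes are those of the 8 longest regions, of the 5 regions with the highest 0 h coverage by each of H3K27me3, H2AK119Ub, Suz12 and Ring1B, of the 5 smallest adjusted p for each mark, and up to 4 genes of each list by region length; others were named after their values were seen, and a few regions and genes of these lists are not reported here. The members and gene lists were chosen with earlier results of these data known. Labels call the replicates biological, and whether they share animals is not given. No correlation of deviations between libraries with the same replicate number passed 0.1 (from -0.151 to 0.0838). With coverage often all or nothing and few libraries a time, this cannot show whether such libraries are paired. For H3K27me3 at 24 h, replicates past the first carry other numbers in the file names than in the titles; the titles were used, and the pairing check, the block and the replicate numbers given for that mark rest on them. Alternatives covered merging, size, list length, scaling, filters, the replicate block and leaving out each library.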

Additional observations from a re-analysis of the deposited data

Results flagged for a closer look

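For the named regions, a library far from the others of its group was looked for in groups of 4 or 5 libraries, by Dixon's test. Chance flags about 1 in 20 groups; here 26 of 48 regional groups were flagged, where coverage is often all or nothing, and 0 of 10 groups of values over all the gained regions. H2AK119Ub at 24 h in replicate 4, the shortest list of that time, accounted for 10. It covered 52.8% near Atf3, 97.6% in Bub1b and 96.9% at Gadd45b, and 0% near Slc43a3, in Abcc4, at Stat5a, at Tnfrsf1b and in the 2431 bp region near Rgs1, where the other 4 were at 100%. At Eef2kmt it was 0% against 98.8% to 100%, and at Zfp236 63.2% against 97.7% to 100%.

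Other libraries of H2AK119Ub at 24 h stood apart at 5 regions: replicate 1 covered 51.7% at Irak1bp1, 42.8% near Tnfaip3 and 100% near Tet2 and replicate 5 covered 100% in Ears2, where the others were at 0%, and replicate 5 covered 98.5% near Arl5c, where the others were at 100%. At 0 h, replicate 4 covered 74.1% near Lonrf1, replicate 2 covered 36.8% at Il6st and replicate 3 covered 98.5% at Igkv2-109, with the others at 100%, and replicate 4 was at 0% at Jkamp, with the others from 94.4% to 100%.

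For H3K27me3 at 24 h, replicate 4, the list with the largest share of the autosomes covered, had 51.2% near Cxcr4, 32.2% in Gm41950, 56.5% at Pfkl and 70.1% in Specc1, against 0% in the others. Replicate 2 had 16.9% in the 2431 bp region near Rgs1, against 0%. Replicate 1 was at 0% at Ifnlr1 and replicate 2 at 92.9% at 4933432I03Rik, against 100%.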

How the results depend on the processing

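The limits are the lists: peaks carry no depth, those of 0 h were the shortest for H3K27ac, H3K27me3 and H2AK119Ub, and list length moves with time. The number of gained and kept regions, 1476, was 738 with the upper 50% of peaks by signal, 70 with lists of equal length and 2409 with 1 of 3 libraries allowed at 0 h; leaving out 1 library gave 1479 to 2131. Regions with a 0 h H3K27me3 peak, 22, became 14 with at least 50% of the region covered and 11 with the stricter lists, and 8 to 16 without 1 library; those with H2AK119Ub, 111, became 55 with stricter lists and 82 to 110 without 1 library. For Suz12, 483 became 274 to 378 and for Ring1B, 451 became 275 to 365 when 1 of the 3 libraries of 0 h was left out.

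Regions called by limma for H3K27me3, 8, became 4 with a peak asked in 1 library, 4 with the replicate block, 2 with scaling and block together (an alternative chosen after seeing the data), and 4 to 15 without 1 library. The 157 called for H2AK119Ub became 102 with the stricter lists and 122 to 248 without 1 library (248 without replicate 4 of 24 h). The 15 called for Ring1B became 0 when scaled, with a peak asked in 1 library, with the replicate block or with both, 37 with the stricter lists, and 0 to 47 without 1 library. Suz12 had 0 throughout. With the replicate block, 134 were called for H2AK119Ub; the cause of these shifts was not tested. Of 108 alternatives over 11 results, 71 stayed within 1.5 times of the value reported. This tally compares totals alone, and it includes comparisons of 0 with 0 for Suz12 and H3K9me3. It does not see the change of directions on scaled values for H3K27me3 and H2AK119Ub, so it is no measure of stability.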
